A study of Mus musculus with 23 samples.

Results

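Genes of fatty acid and sphingolipid metabolism were followed through the mouse oligodendrocyte lineage. The set holds 39 genes, named by symbol, of the 35385 gene rows in the count tables. By role they are 6 genes of acetyl-CoA supply and fatty acid synthesis, 4 desaturases, 8 genes of elongation, 10 of ceramide synthesis, 6 of headgroup addition and fatty acid hydroxylation, and 5 of breakdown. The first 3 roles, with 18 genes, make and shape fatty acids, and the other 3 roles, with 21 genes, build sphingolipids and take them apart.

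The 23 poly(A) RNA libraries came from oligodendrocyte progenitor cells (OPCs) grown from mouse epiblast stem cells of the 129SvEv and 129S1/SvImJ strains, and from the oligodendrocytes (OLs) those OPCs gave rise to. One experiment compared magnetically sorted OPCs with OLs sorted for the surface antigen O1, with 3 libraries each. The other delivered a non-targeting guide or either of 2 guides against Sox6 by lentiviral CRISPR. Infected cells were kept under puromycin (500 ng/mL, 96 hours), and the wells were lysed after 60 hours in OPC growth medium or in medium that permits differentiation. There were 3 libraries for every guide and medium except guide 1 in OPCs, which had 2. Targeted and control cells came from 1 starting batch of OPCs, and each targeted group is a selected population and not a clone. The cells called OLs in the SOX6 experiment were not sorted, so each library is a mixture, and in a mixture fewer cells of a type and less RNA per cell cannot be told apart. Nothing in the labels says that libraries of 1 group came from separate cultures, so the p-values measure the spread between these libraries.

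Myelin is unusually rich in lipid, and galactosylceramide and its sulfated form, sulfatide, are its typical glycolipids. Citrate and acetate supply cytosolic acetyl-CoA, which acetyl-CoA carboxylase and fatty acid synthase turn into palmitate. Desaturases then place double bonds, and the elongation cycle lengthens the chains to the very long fatty acids that ceramide synthases attach to a sphingoid base. Ceramide receives galactose, glucose or phosphocholine as its headgroup, and lysosomal enzymes remove these groups again. In myelin many of the fatty acids of galactosylceramide carry a hydroxyl group, which Fa2h adds.

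Levels are given as TPM (an abundance scaled for transcript length and to a fixed total) or, where a gene is followed across the SOX6 experiment, as CPM (counts scaled by library size after TMM, not by length). The count libraries summed to between 13124580 and 18551822 estimated counts, and the depth behind the sorted TPM is unknown. The labels were checked against marker genes. Mbp, a myelin protein gene, lay between 0.0459 and 0.461 TPM in sorted OPCs and between 16026 and 16652 TPM in sorted OLs, while Pdgfra, a receptor that defines OPCs, lay between 8.91 and 15.1 TPM in sorted OPCs and between 0.148 and 1.40 TPM in sorted OLs. In the unsorted control OLs 8 oligodendrocyte markers summed to between 1225 and 1386 TPM, against 26287 to 26529 TPM in sorted OLs, and Pdgfra was at 108 ± 7.66 CPM, against 21.9 ± 3.66 CPM for control OPCs (SD, n = 3 each). Pdgfra thus went against the labels in culture. The sum of 5 OPC markers (Pdgfra, Cspg4, Olig1, Olig2 and Sox10) did not separate the stages either. It was 1386 to 1743 TPM in sorted OPCs against 1564 to 1587 TPM in sorted OLs, and 2742 to 3156 TPM in control OPCs against 2599 to 2814 TPM in control OLs. This sum therefore does not tell OPCs from OLs here. Of 12 astrocyte markers, 11 were at 1 TPM or more in every control OL library, and their summed level was between 719 and 830.3 TPM in control OPCs and between 5280.2 and 5748 TPM in control OLs. The same sum was between 586 and 656 TPM in sorted OPCs and between 2089.8 and 4160 TPM in sorted OLs. All 6 microglia markers were under 1 TPM in every library. The part of astrocyte marker genes in the stage results was not tested.

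Some libraries stood apart. Relative to its group mates, the guide 1 OL library B was shifted by transcript length, with a Spearman's rho across 8295 genes of -0.67 between its log2 ratio and average transcript length, and its median absolute log2 difference from its group mates was 0.41, against 0.07 to 0.12 in control and guide 2 OLs. The control OPC libraries A and C were shifted by length in opposite directions, with rho of -0.48 and 0.50 across 8302 genes. Results that rest on these libraries are given with and without them. Sox6 itself was lower with every guide. Its CPM was 165, 201 and 234 in control OPCs, 88.9 and 75.0 with guide 1, and 74.4, 67.4 and 86.4 with guide 2. In OLs it was 417, 437 and 387 in controls, 259, 157 and 242 with guide 1, and 255, 253 and 255 with guide 2. No targeted library reached the lowest control library of its stage. The table of TPM also lists some genes that every cell uses near 0, among them Pgk1 with at most 1.63 TPM and Polr2a with at most 1.36 TPM in any library, both picked out after their values were seen. A level of 0 for a single gene may therefore be a failed estimate. The library kit does not mark strand. Exons of Acss2, Me1, Elovl1, Elovl6, Cers1, Cers2, Cers4, Degs2, Sgms1, Galc and Arsa overlap a gene on the opposite strand in the GENCODE M21 annotation. Reads from the overlapping parts cannot be told apart by strand, and the extent of the overlap is not given.

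Promoter windows are shown for 3 genes that differed between the stages, namely the elongase Elovl7 and the sulfotransferase Gal3st1, which stood among the widest rises, and the synthase Fasn, which was lower in OLs. Each is the 250 bases before the RefSeq start (GRCm38.p6), read 5′ to 3′ on the gene's strand. Capitals mark matches on either strand to CCAAT, the box bound by NF-Y. The Elovl7 window is chr13:108214154-108214403 on the plus strand, the Gal3st1 window chr11:3983386-3983635 on the plus strand, and the Fasn window chr11:120824548-120824797 on the minus strand.
Elovl7: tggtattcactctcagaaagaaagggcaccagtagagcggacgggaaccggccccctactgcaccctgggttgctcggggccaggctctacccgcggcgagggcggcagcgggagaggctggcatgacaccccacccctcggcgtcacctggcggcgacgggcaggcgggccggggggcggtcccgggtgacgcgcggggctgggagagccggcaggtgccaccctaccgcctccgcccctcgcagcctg
Gal3st1: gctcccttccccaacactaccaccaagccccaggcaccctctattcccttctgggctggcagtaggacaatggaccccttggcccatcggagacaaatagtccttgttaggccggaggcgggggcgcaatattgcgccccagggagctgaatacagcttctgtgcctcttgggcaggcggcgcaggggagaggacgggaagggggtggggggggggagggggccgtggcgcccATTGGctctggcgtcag
Fasn: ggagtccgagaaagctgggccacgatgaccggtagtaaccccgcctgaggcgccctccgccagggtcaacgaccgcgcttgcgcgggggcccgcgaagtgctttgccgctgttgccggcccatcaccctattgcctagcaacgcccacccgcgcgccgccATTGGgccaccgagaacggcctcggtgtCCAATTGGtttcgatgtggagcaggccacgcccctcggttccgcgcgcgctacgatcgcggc
The Fasn window held 3 matches to CCAAT, 2 of which overlap on opposite strands, the Gal3st1 window held 1 and the Elovl7 window held 0. Of the 39 genes, 34 had at least 1 window in the RefSeq table. Scd1, Scd2, Fads1, Fa2h and Asah1 had none and were not searched. Scd1, Scd2, Fads1 and Fa2h are among the genes called in targeted OLs below, so the motif counts do not cover them. CCAAT was in 18 of their 49 windows (36.7%), against 33.8% of all 32851 windows. The sterol regulatory element TCACNCCAC was in 0 of the 49 and in 1.05% of all windows, and the SOX core AACAAT was in 2 of the 49 and in 9.42% of all windows. The last 2 motifs were also searched on both strands and do not overlap CCAAT in their letters. A match describes letters only.

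Across the sorted cells the levels of the 39 genes spanned a wide range, with several listed at 0. Scd2, the main stearoyl-CoA desaturase of brain, was the most abundant of them in every group, with 1002 ± 70.3 TPM in sorted OPCs, while sorted OLs had 2361 ± 253 TPM (SD, n = 3 each). Psap, the precursor of the saposins that help lysosomal enzymes reach sphingolipids, followed with 393 ± 48.2 TPM and 574 ± 48.3 TPM. In sorted OLs the next levels were Hsd17b12 (346 ± 16.9 TPM), Elovl7 (294 ± 17.6 TPM), Fads1 (275 ± 27.6 TPM), Fads2 (241 ± 41.6 TPM), Scd1 (228 ± 38.9 TPM) and Tecr (216 ± 12.3 TPM), and among Fads1, Fads2, Scd1 and Tecr neighbouring levels lay within each other's spread. Fa2h, with 171 ± 4.72 TPM, stood above Fasn in sorted OLs, and Gal3st1, with 119.8 ± 4.08 TPM, lay within the range of the Fasn libraries. Both were far below Fasn in sorted OPCs. At the low end, Elovl5 was listed at 0.187 TPM or less in all sorted libraries and Elovl2 at 0 in 5 of the 6.

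**Figure D1:**
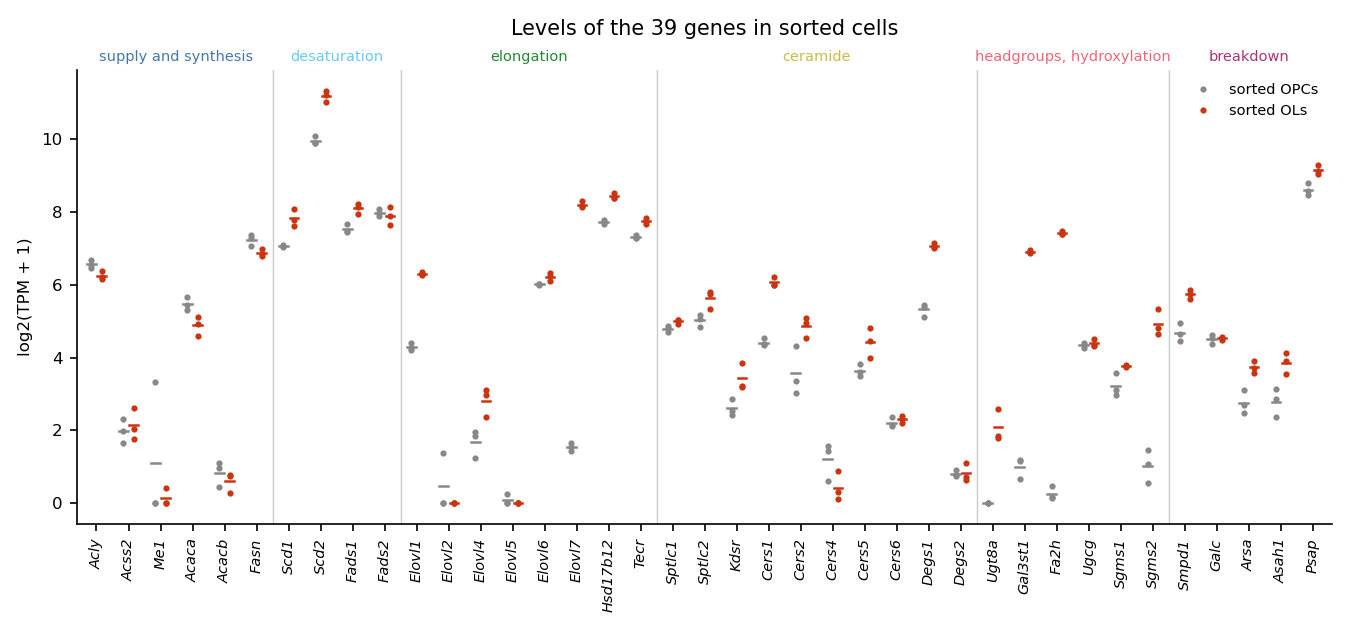
Level of each of the 39 genes in the 3 sorted OPC libraries (grey) and the 3 sorted OL libraries (red), as log2(TPM + 1) on the vertical axis, with a short line at each mean and the genes grouped by role. The widest gaps between the colours are at Elovl7, Gal3st1, Fa2h and Sgms2, while Acly, Acaca and Fasn have the grey points above.

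Sorted OLs had higher levels than sorted OPCs for most of the tested genes, and the 3 called lower, Acly, Acaca and Fasn, belong to acetyl-CoA supply and fatty acid synthesis. Of the 39 genes, 33 passed the minimum of 1 TPM in 3 of 6 libraries. Of these, 24 were higher in sorted OLs and 3 were lower (limma on log2(TPM + 1), Benjamini-Hochberg adjusted p below 0.05). Across all 11900 genes tested 61.0% were called, 26.6% as higher and 34.4% as lower. The median log2 difference was 0.77 over the 33 genes and -0.14 over all tested genes. Fa2h and Ugt8a were under 1 TPM in every sorted OPC library and so entered through the OLs. Gal3st1 and Sgms2 were under 1 TPM in part of the sorted OPC libraries, so they too passed the minimum only through the OLs. Between unsorted control OLs and control OPCs, 35 of the 39 genes were tested with edgeR's quasi-likelihood test, 19 were higher in OLs and 6 were lower. Of all 12868 genes tested there, 53.7% were called, 26.8% as higher and 26.9% as lower, and the median log2 change was 0.52 over the 35 genes and 0.02 over all. With transcript-length offsets 16 were higher and 5 lower, and the median over the 35 genes was 0.17, against -7.8e-04 over all. In culture the stages came in separate tables, so table and stage cannot be told apart.

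The genes that start fatty acid synthesis were lower in sorted OLs. Fasn, the fatty acid synthase, was at 156, 163 and 134 TPM in sorted OPCs and at 113, 125 and 109.5 TPM in sorted OLs, and the groups did not overlap. Its difference was -0.37 ± 0.09 (log2, SE, adjusted p = 0.0105). Acly, which splits citrate into acetyl-CoA, was at 93.0, 102 and 87.2 TPM in sorted OPCs and at 70.4, 72.9 and 82.4 TPM in sorted OLs, a difference of -0.32 ± 0.09 (adjusted p = 0.0182). That call was lost without OL library A, OL library B or OPC library B, with adjusted p between 0.059 and 0.0626. Acaca, the cytosolic acetyl-CoA carboxylase, differed by -0.59 ± 0.16 (adjusted p = 0.0141), and 33.4% of its 31-base words also occur in other genes, so its reads may be shared. In culture the direction held for Fasn and Acly and not for Acaca. Control OPCs had 1133, 1192 and 1282 CPM of Fasn and control OLs 894, 931 and 919 CPM, a change of -0.38 ± 0.06 (adjusted p = 0.0012) that did not pass with both stages in 1 fit (-0.39, adjusted p = 0.121). Acly went from 276 ± 37.0 to 149 ± 21.7 CPM (SD, n = 3 each), a change of -0.87 ± 0.13 (adjusted p = 7.4e-04). Acaca was higher in control OLs by 0.57 ± 0.18 (adjusted p = 0.0293), a call lost without OL library A or C or OPC library A or C (adjusted p from 0.0568 to 0.122) and with transcript-length offsets (change 0.07). Acss2, which makes acetyl-CoA from acetate, was low in culture, where control OPCs had 1.40 ± 0.29 CPM and control OLs had 3.57 ± 0.71 CPM. Its rise of 1.37 ± 0.31 (adjusted p = 0.0071) was 0.50 with length offsets (adjusted p = 0.465) and was not called in sorted cells (0.16 ± 0.28). Me1, a malic enzyme that supplies NADPH, was listed at 0 in 4 of the 6 sorted libraries and 30.0% of its words are shared, and Acacb, the mitochondrial carboxylase, was tested in neither stage comparison.

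Desaturases were higher in OLs in both experiments, with 1 exception. Scd2 was at 959, 963 and 1083 TPM in sorted OPCs and at 2094, 2392 and 2598 TPM in sorted OLs, a difference of 1.23 ± 0.09 (log2, SE, adjusted p = 3.1e-05). In culture it was at 4482, 4478 and 4503 CPM in control OPCs and at 8960.2, 8912 and 8802 CPM in control OLs, a change of 1.01 ± 0.04 (adjusted p = 8.6e-07). The lowest OL library stood far above the highest OPC library in both experiments. Scd1, a second stearoyl-CoA desaturase, differed by 0.77 ± 0.12 in sorted cells (adjusted p = 0.001) and by 0.65 ± 0.05 in culture (adjusted p = 3.3e-05). Scd1 and Scd2 share 8.14% and 6.81% of their words with other genes, mostly with Scd3. Fads1, the delta-5 desaturase of polyunsaturated fatty acids, differed by 0.56 ± 0.10 (adjusted p = 0.0018) and 0.71 ± 0.04 (adjusted p = 8.7e-06). Fads2, the delta-6 desaturase, was the exception. It was at 249, 238 and 270.0 TPM in sorted OPCs and at 200.3, 238 and 284 TPM in sorted OLs, overlapping groups with a difference of -0.08 ± 0.12 (adjusted p = 0.593), yet in culture it went from 643, 633 and 619 to 1341, 1402 and 1345 CPM, a change of 1.13 ± 0.04 (adjusted p = 8.5e-07). The difference between the experiments was not tested, since their values were scaled separately.

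Elongation genes were higher in sorted OLs for all 6 that were tested, and in culture 3 of 7 were higher and 1 was lower. Over all genes tested, 26.6% were higher and 34.4% lower in sorted OLs, and 26.8% and 26.9% in culture. Elovl7, an elongase of saturated and monounsaturated very long chains, was at 2.16, 1.90 and 1.70 TPM in sorted OPCs and at 286, 315 and 283 TPM in sorted OLs. That is a difference of 6.66 ± 0.10 on the log2(TPM + 1) scale (adjusted p = 6.1e-08), without overlap. In culture it went from 5.02, 6.12 and 6.30 to 71.5, 72.2 and 75.7 CPM, a change of 3.67 ± 0.10 (adjusted p = 2.8e-07). Elovl1, which extends chains toward C24, was at 20.3, 17.6 and 18.3 TPM in sorted OPCs and at 77.1, 76.2 and 80.5 TPM in sorted OLs (difference 2.00 ± 0.08, adjusted p = 2.0e-06), and rose by 0.55 ± 0.12 in culture (adjusted p = 0.0054). The shared steps of the elongation cycle moved less. The ketoacyl reductase Hsd17b12 differed by 0.71 ± 0.06 in sorted cells (adjusted p = 5.9e-05) and by 0.07 ± 0.05 in culture (adjusted p = 0.279), and the enoyl reductase Tecr by 0.45 ± 0.06 (adjusted p = 7.4e-04) and 0.30 ± 0.06 (adjusted p = 0.0051), the last call being lost with both stages in 1 fit (0.28, adjusted p = 0.177). Elovl6, which extends palmitate to stearate, was 63.5 ± 0.974 TPM in sorted OPCs, while sorted OLs had 74.0 ± 5.84 TPM. Its difference of 0.21 ± 0.08 (adjusted p = 0.0448) was lost when any library but OL library C was left out (adjusted p from 0.0638 to 0.145). Elovl6 also lost this call with no filter on low values (adjusted p = 0.0554) and with TPM rescaled to a common total (adjusted p = 0.0613). In culture it fell by 0.41 on the log2 scale (SE 0.06, adjusted p = 6.0e-04). Elovl4, an elongase of extremely long chains, was under 10 TPM in all sorted libraries and differed by 1.13 ± 0.27 there (adjusted p = 0.0094).

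Ceramide synthesis genes were higher in sorted OLs for 6 of 8 tested, and in culture 3 of 9 were higher and 2 were lower. Over all genes tested, 26.6% were higher and 34.4% lower in sorted OLs. In culture 53.7% of all genes were called, 26.8% as higher and 26.9% as lower, so the culture count of this class lay near that share. Degs1, the desaturase that makes ceramide from dihydroceramide, was at 42.6, 41.3 and 33.9 TPM in sorted OPCs and at 131, 129 and 139.9 TPM in sorted OLs, a difference of 1.75 ± 0.10 (log2, SE, adjusted p = 7.7e-06). Its change in culture was 0.59 ± 0.07 (adjusted p = 3.7e-04). Cers2, the synthase for very long acyl chains, was at 19.1, 9.28 and 7.13 TPM in sorted OPCs and at 29.8, 32.9 and 22.5 TPM in sorted OLs (difference 1.29 ± 0.33, adjusted p = 0.0121). In culture control OPCs had 6.88, 4.93 and 7.5 CPM of Cers2 and control OLs had 7.37, 4.41 and 5.4 CPM, which overlapped and did not differ by the test (-0.15 ± 0.26, adjusted p = 0.667). Cers1, the synthase for C18 chains, differed by 1.66 ± 0.10 in sorted cells (adjusted p = 9.0e-06) and by 0.78 ± 0.05 in culture (adjusted p = 1.1e-05). Its exons overlap those of Gdf1, with 42.0% of its words, so reads from the shared part cannot be told apart. Cers5 went opposite ways, with 0.79 ± 0.21 in sorted cells (adjusted p = 0.0157) and -0.84 ± 0.25 in culture (adjusted p = 0.0222), and both calls were lost without OPC library B in sorted cells (adjusted p = 0.0515) or without OL library B or C or OPC library A in culture (adjusted p from 0.065 to 0.0692), where transcript-length offsets gave -0.50 (adjusted p = 0.212). Cers6, a synthase for C16 chains, fell by 0.36 in control OLs (SE 0.09, adjusted p = 0.0101). Sptlc2, a subunit of the serine palmitoyltransferase that opens the pathway, differed by 0.61 ± 0.15 in sorted cells (adjusted p = 0.0096) and by -8.2e-04 ± 0.06 in culture (adjusted p = 0.992), while its partner Sptlc1 passed in neither (0.20 ± 0.09 and -0.13 ± 0.06). Kdsr, the ketosphinganine reductase, differed by 0.82 ± 0.23 (adjusted p = 0.017) and 0.31 ± 0.09 (adjusted p = 0.0268). In sorted cells that call was lost without OPC library A or C (adjusted p of 0.0514 and 0.0525), and in culture without OL or OPC library A or C (adjusted p from 0.0821 to 0.112), and with transcript-length offsets its sign turned (-0.0046, adjusted p = 0.985). The culture call of Kdsr was also lost with DESeq2 (adjusted p = 0.0639) and with no filter on low counts (adjusted p = 0.052). Without both uneven control OPC libraries, which leaves 1 control OPC library, assumed to vary like the other group, the culture calls of Acaca, Acss2, Cers5, Cers6 and Kdsr were lost, with adjusted p from 0.0534 to 0.32. Their changes there were 0.31, 1.13, -0.78, -0.41 and 0.18. Cers4 and Degs2, the remaining genes of the class, were under the TPM minimum in sorted cells, and in culture Cers4 did not pass and Degs2 was not tested.

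Fa2h had the widest difference of all tested genes of the set in both experiments, and Gal3st1 stood among the 3 widest. Fa2h, the fatty acid 2-hydroxylase, was at 0.126, 0.102 and 0.373 TPM in sorted OPCs and at 167, 176 and 169 TPM in sorted OLs, a difference of 7.17 ± 0.13 on the log2(TPM + 1) scale (adjusted p = 1.0e-07). Gal3st1, the sulfotransferase that turns galactosylceramide into sulfatide, was at 1.27, 1.24 and 0.586 TPM in sorted OPCs and at 124, 116 and 119 TPM in sorted OLs (difference 5.91 ± 0.16, adjusted p = 3.8e-07). In culture Fa2h went from 0.717, 1.94 and 0.566 to 48.7, 53.6 and 50.7 CPM (log2 change 5.54 ± 0.32, adjusted p = 5.5e-06), and Gal3st1 from 1.58, 0.999 and 0.495 to 27.5, 28.8 and 26.0 CPM (change 4.76 ± 0.31, adjusted p = 1.0e-05). Neither gene overlapped between the stages, but in both experiments each of them passed the filter on low levels only through the OLs. Ugt8a, which adds galactose to ceramide, was listed at 0 in every OPC library of both experiments and at 2.62, 2.47 and 5.02 TPM in sorted OLs (adjusted p = 3.0e-04), a low level for the enzyme between Fa2h and Gal3st1 that falls under the limit given above for single genes. Sgms2, a sphingomyelin synthase of the plasma membrane, was at 1.09, 1.75 and 0.463 TPM in sorted OPCs and at 27.1, 24.0 and 39.5 TPM in sorted OLs (difference 3.91 ± 0.28, adjusted p = 2.5e-05). In culture its change of 0.88 ± 0.37 did not pass (adjusted p = 0.0783). Sgms1, the sphingomyelin synthase of the Golgi, differed by 0.54 ± 0.17 in sorted cells (adjusted p = 0.0298) and by 0.58 ± 0.08 in culture (adjusted p = 7.3e-04). The first of these calls was lost without any 1 library other than OPC library C (adjusted p from 0.063 to 0.0916) and with no filter on low values (adjusted p = 0.0514). Ugcg, which adds glucose to ceramide, was 19.3 ± 1.05 TPM in sorted OPCs, while sorted OLs had 20.0 ± 1.62 TPM, and in culture it fell by 0.60 on the log2 scale (SE 0.06, adjusted p = 1.5e-04).

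Breakdown genes rose in 4 of 5 cases in each experiment, where 26.6% of all genes tested were higher in sorted OLs and 26.8% in culture. Smpd1, the acid sphingomyelinase, was at 24.0, 20.8 and 30.0 TPM in sorted OPCs and at 52.6, 47.9 and 57.0 TPM in sorted OLs (difference 1.05 ± 0.14, adjusted p = 5.6e-04), and rose by 1.10 ± 0.06 in culture (adjusted p = 6.2e-06). Arsa, which removes the sulfate of sulfatide, differed by 0.97 ± 0.19 (adjusted p = 0.0037) and 0.72 ± 0.09 (adjusted p = 3.0e-04), and Psap by 0.55 ± 0.10 (adjusted p = 0.0028) and 0.40 ± 0.04 (adjusted p = 1.4e-04). Galc, which removes the galactose of galactosylceramide, did not differ by the test in sorted cells, with 21.8 ± 1.94 and 22.2 ± 0.597 TPM, but rose in culture by 0.59 ± 0.05 (adjusted p = 5.1e-05). Asah1, the acid ceramidase, showed the reverse, with 1.07 ± 0.24 in sorted cells (adjusted p = 0.0069) and -0.06 ± 0.48 in culture (adjusted p = 0.931).

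**Figure D2:**
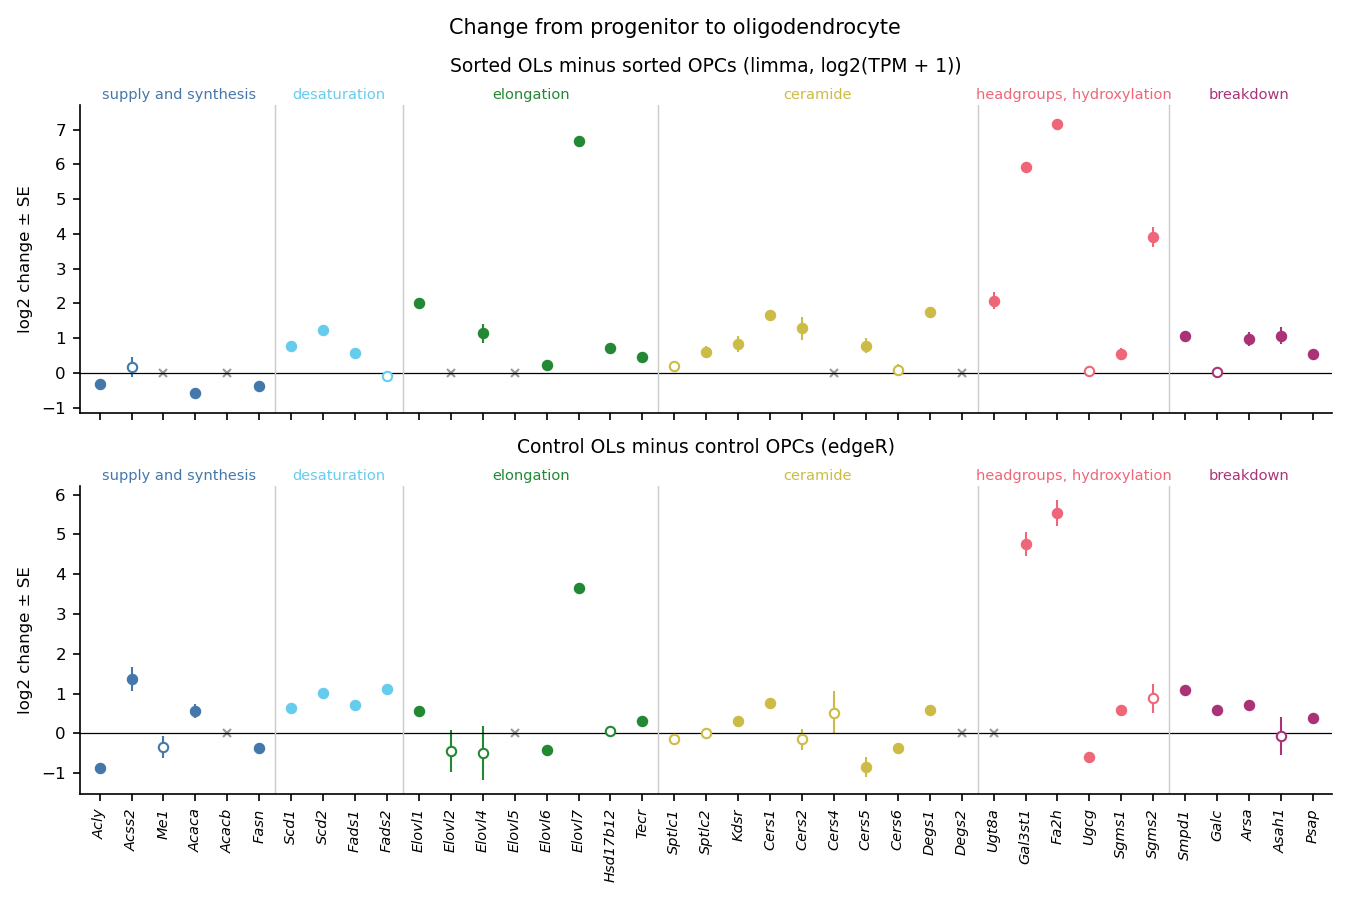
Log2 difference of each gene from progenitor to oligodendrocyte, sorted cells above and control cultures below, with bars of 1 standard error. Filled points passed an adjusted p of 0.05, open points did not, and grey crosses mark genes not tested. Fa2h, Gal3st1 and Elovl7 are the 3 highest points in both panels, and Acly and Fasn are filled below 0 in both.

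The 2 ends of the pathway were set side by side by their counts. Over all genes tested, 26.6% were higher and 34.4% lower in sorted OLs, and 26.8% and 26.9% in culture. Of the 14 tested genes of synthesis, desaturation and elongation, 9 were higher and 3 were lower in sorted OLs, with a median difference of 0.51. Of the 19 tested genes of ceramide, headgroups and breakdown, all 19 differences were positive and 15 passed, with a median of 0.97. Among them Fa2h, Ugt8a, Gal3st1 and Sgms2 passed the minimum only through the OLs, so they could enter only where high in OLs. Fa2h and Gal3st1 passed the culture filter only through the OLs as well. In culture the counts were 9 higher and 3 lower of 16 for the fatty acid steps (median 0.43) and 10 higher and 3 lower of 19 for the sphingolipid steps (median 0.52). With transcript-length offsets these were 7 higher and 3 lower (median 0.19) and 9 higher and 2 lower (median 0.17), so the order of the medians turned. These are counts of chosen genes, and no test compared the ends.

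Targeting Sox6 in OLs raised all 4 desaturases and lowered the hydroxylase Fa2h. Of the 39 genes 38 were tested, 5 rose and 2 fell (mean of both guides against control, edgeR), where 6.50% of all 13447 genes tested were called, 3.13% as higher and 3.37% as lower. The median change was 0.15 over the 38 genes and -7.8e-04 over all. The rises were Scd1, Scd2, Fads1, Fads2 and Sgms1, and the falls were Fa2h and Elovl2. Elovl2 passed the filter only through the controls. The count rests on the libraries used. It was 14 without guide 1 library B, where 16.9% of all genes were called, and those 14 held all 7. It was 3 without control library A or without control library B, and 4 without control library C or guide 2 library A or C. No share over all genes is given for these smaller counts.

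Scd2 was at 8960.2, 8912 and 8802 CPM in control OLs, at 11463, 10125 and 11799 CPM under guide 1 and at 12102, 10880.0 and 11731 CPM with guide 2. Every targeted library stood above every control library, and the change was 0.35 ± 0.07 (log2, SE, adjusted p = 0.0154). Scd1 was at 564, 567 and 532 CPM in controls, at 864, 650.4 and 882 CPM under guide 1 and at 792, 725 and 819 CPM with guide 2, a change of 0.51 ± 0.11 (adjusted p = 0.0245). Fads1 was at 840.0, 840.1 and 837 CPM in controls, at 1098, 1008 and 1122 CPM under guide 1 and at 1186, 1139 and 1116 CPM with guide 2, a change of 0.40 ± 0.06 (adjusted p = 0.0052). Fads2 was at 1341, 1402 and 1345 CPM in controls, at 1811, 1722 and 1780.5 CPM under guide 1 and at 1849, 1832 and 1844 CPM with guide 2, a change of 0.40 ± 0.05 (adjusted p = 0.0027). None of the 4 genes had a targeted library within the range of the controls. That only describes these libraries, since no share over all genes is given for it. In each of the 4 genes the guide 1 library B was the lowest of the 6 targeted libraries. Without that library the changes were 0.56 for Scd1, 0.37 for Scd2, 0.42 for Fads1 and 0.41 for Fads2, with adjusted p between 1.8e-05 and 1.2e-04. Guide 1 alone called 7 of the 38 genes, 4 as higher and 3 as lower, where 4.92% of all genes were called (2.39% higher, 2.53% lower), and guide 2 alone called 5, 3 as higher and 2 as lower, where 4.44% were called (2.31% higher, 2.13% lower). All 4 desaturases rose with guide 1, and 3 rose with guide 2, with Scd1 at 0.48 ± 0.12 (adjusted p = 0.0623). The calls of Fads1 and Fads2 held in every alternative tried, while those of Scd1 and Scd2 were lost when any control library, or guide 2 library A or C, was left out (adjusted p from 0.0515 to 0.136) and with library totals in place of TMM. The Scd2 call was also lost with no filter on low counts (adjusted p = 0.0706). All 4 genes lie on chromosome 19 (mm10), Fads2 at 10062765 to 10101746 and Fads1 at 10182888 to 10196877, and Scd2 at 44293674 to 44306864 and Scd1 at 44394455 to 44407879.

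**Figure D3:**
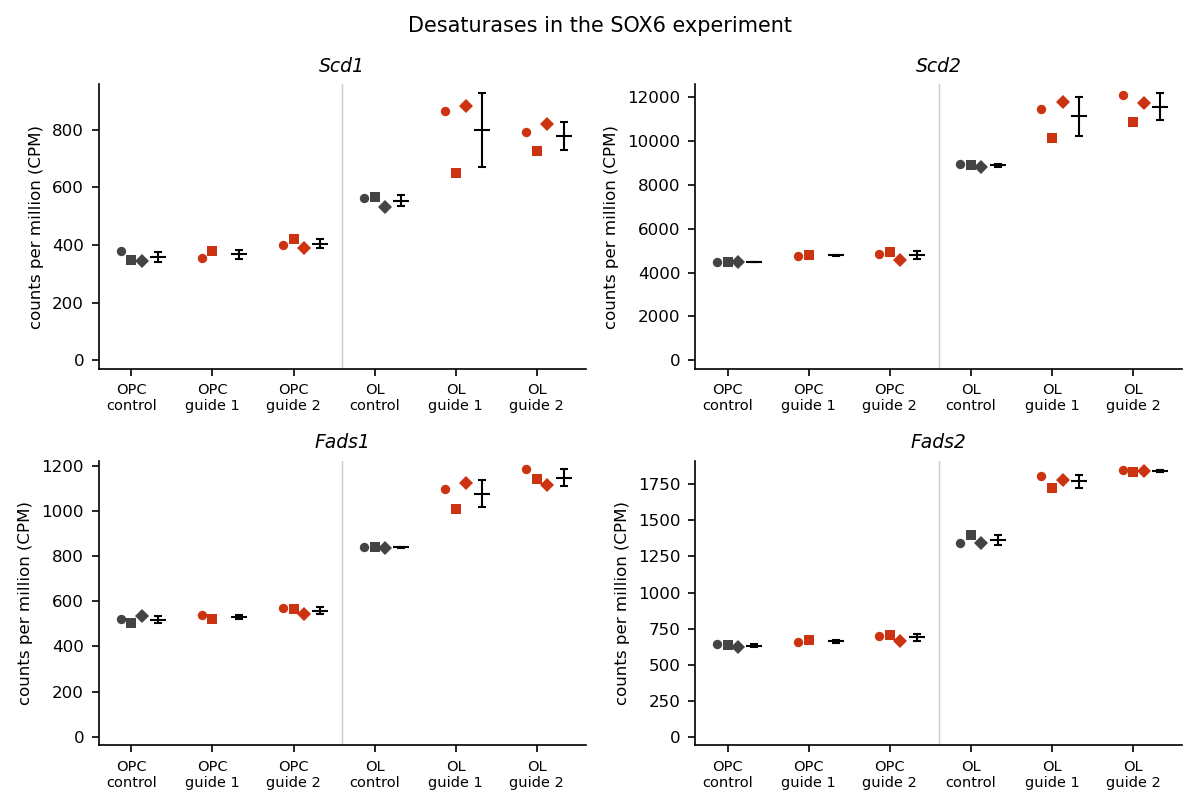
CPM of the 4 desaturases in each library of the SOX6 experiment (circle, square and diamond for libraries A, B and C; grey for control, red for targeted), with the mean and SD beside each group. In OLs every red point is above every grey point in all 4 panels, and in OPCs the groups lie close together.

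Of the 3 galactolipid genes tested in targeted OLs, Fa2h alone passed, as a fall. Fa2h was at 48.7, 53.6 and 50.7 CPM in controls, at 23.2, 26.9 and 25.3 CPM under guide 1 and at 32.7, 30.9 and 29.2 CPM with guide 2. The groups did not overlap, the change was -0.87 ± 0.08 (log2, SE, adjusted p = 3.9e-04), and the call held with either guide alone (-1.02 ± 0.10 and -0.73 ± 0.09) and in every alternative tried. Gal3st1 was at 27.5, 28.8 and 26.0 CPM in controls, at 17.1, 28.6 and 18.7 CPM under guide 1 and at 18.0, 24.3 and 18.2 CPM with guide 2, and its change of -0.40 ± 0.17 did not pass (adjusted p = 0.259). Without the guide 1 library B, which alone lay within the control range, the change was -0.54 ± 0.11 (adjusted p = 0.012). Beside the fall of Fa2h, the summed level of 8 oligodendrocyte markers overlapped the controls with guide 1 and lay above them with guide 2, with 1225 to 1386 TPM in controls, 1136 to 1591 TPM under guide 1 and 1616 to 1779.8 TPM with guide 2, and 12 astrocyte markers summed to 5280.2 to 5748, 5951 to 6615 and 6549 to 6868 TPM. The 5 OPC markers summed to 2599 to 2814, 2171 to 2369 and 2386 to 2422 TPM, and 8 neuron markers to 668 to 672, 197 to 568 and 572 to 612 TPM, both lower in every targeted library than in any control. The OPC sum did not tell OPCs from OLs, as given above. The part of all these markers in the result was not tested. Sgms1 was at 45.2, 40.0 and 44.9 CPM in controls, at 54.5, 50.0 and 54.4 CPM under guide 1 and at 55.6, 53.4 and 59.6 CPM with guide 2, a rise of 0.33 ± 0.08 (adjusted p = 0.0427). That call was lost without any 1 library other than guide 1 library B (adjusted p from 0.0707 to 0.229). It was also lost with no filter on low counts (adjusted p = 0.0856) and with library totals (adjusted p = 0.14). Ugcg fell with guide 1 alone (-0.41 ± 0.09, adjusted p = 0.0421) and was at -0.26 ± 0.08 with both guides (adjusted p = 0.0989).

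Elovl2, an elongase of polyunsaturated fatty acids, was scarce and was listed at 0 in all 6 targeted OL libraries. Control OLs had 46, 34 and 14 counts, or 2.67, 2.14 and 1.01 CPM. Elovl2 thus passed the filter in OLs only through the controls. With a floor of 3 counts put in each targeted library, the mean of targeted OLs was at least 10.3-fold under the control mean. That bound holds only if the levels of 0 are not failed estimates. The fitted log2 change of -7.97 (edgeR, adjusted p = 0.0082) is no bound. The levels of 0 fall under the limit given above for single genes. The call was lost without control library A or B, with adjusted p of 0.0628 and 0.0636. In OPCs Elovl2 was detected throughout, with 3.94, 3.06 and 1.13 CPM in controls, 0.859 and 0.842 CPM under guide 1, and 6.54, 4.07 and 1.08 CPM under guide 2, and the groups overlapped (-0.55 ± 0.57, adjusted p = 0.702).

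**Figure D4:**
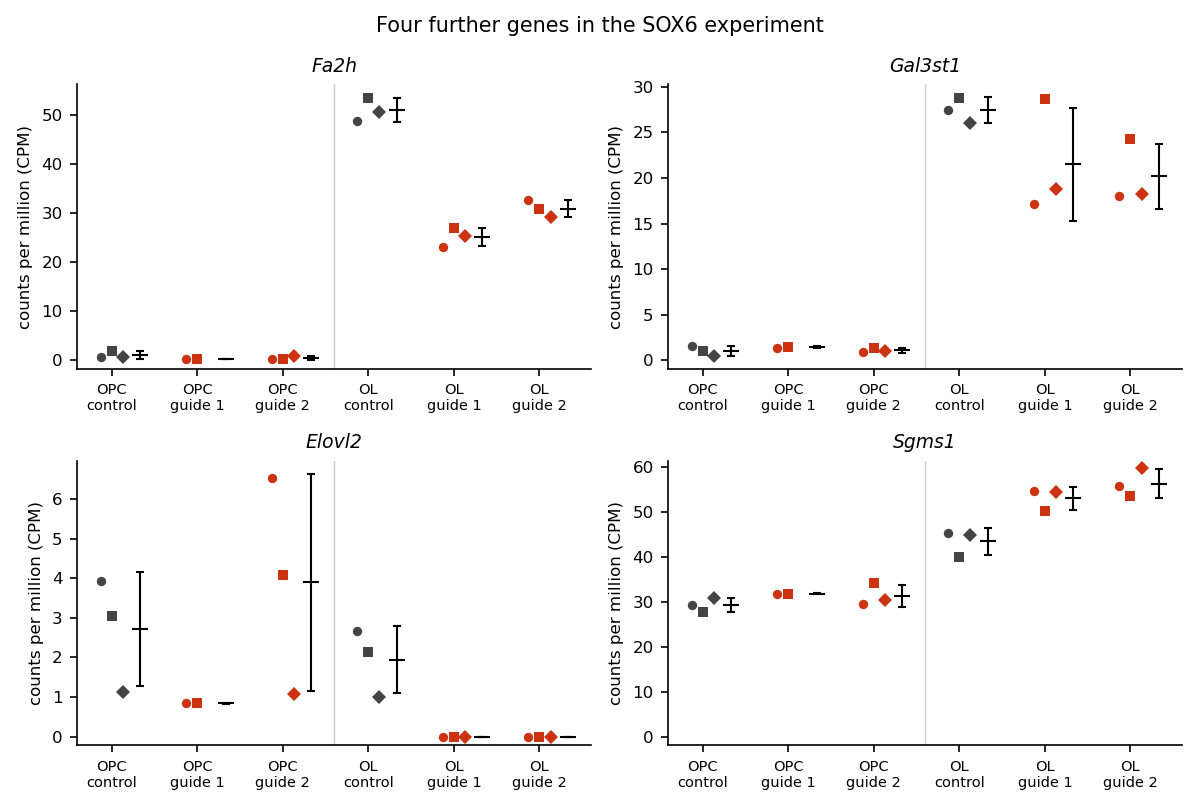
CPM of Fa2h, Gal3st1, Elovl2 and Sgms1 in each library of the SOX6 experiment, drawn as for the desaturases. In OLs the red points of Fa2h lie between 23.2 and 32.7 CPM under the grey points, those of Elovl2 lie at 0, and those of Sgms1 lie above the controls.

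Without guide 1 library B, 7 further genes passed in targeted OLs. Degs1 (0.27 ± 0.03, adjusted p = 5.3e-04), Psap (0.17 ± 0.03, adjusted p = 0.0033), Smpd1 (0.20 ± 0.04, adjusted p = 0.0058) and Cers1 (0.21 ± 0.04, adjusted p = 0.006) were higher. Gal3st1, Cers6 (-0.40 ± 0.08, adjusted p = 0.0121) and Ugcg (-0.24 ± 0.06, adjusted p = 0.0273) were lower. Fasn, Acly and Acaca passed neither with that library nor without it, with changes of -0.06 ± 0.21, 0.14 ± 0.29 and -0.18 ± 0.28 over all libraries. Fasn in guide 1 OLs was 985, 476 and 1049 CPM and Acly 128, 344 and 134 CPM, so for both genes library B was the far value.

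In targeted OPCs 35 of the 39 genes were tested with edgeR and 1 passed, a rise, where 3.59% of all 13358 genes tested were called, 1.95% as higher and 1.63% as lower. At an unadjusted p below 0.05 there were 9 of the 35, where 17.2% of all genes tested fell below it. DESeq2 called 5, namely Galc, Scd2, Fads2 and Psap as higher and Tecr as lower, where it called 6.08% of all genes. Galc was at 78.7, 76.6 and 79.5 CPM in control OPCs, at 87.5 and 88.0 CPM under guide 1 and at 97.7, 91.2 and 89.9 CPM with guide 2. The groups did not overlap, and the rise over both guides was 0.23 ± 0.05 (log2, SE, adjusted p = 0.0365). The call was lost without any 1 library other than control library C (adjusted p from 0.0607 to 0.163), without both uneven controls, which leaves 1 control library (0.25, adjusted p = 0.159), and with transcript-length offsets (adjusted p = 0.114). With guide 2 alone Galc was again the 1 call of 35 (0.26 ± 0.05, adjusted p = 0.0466), where 2.04% of all genes were called (1.33% higher, 0.719% lower), and this call too was lost when any 1 library was left out and with transcript-length offsets. With guide 1 alone edgeR called 0 of the 35 and 4 had an unadjusted p below 0.05, where 2.78% of all genes were called (1.32% higher, 1.47% lower) and 16.4% had such an unadjusted p. The 4 desaturases had positive changes that did not pass, of 0.13 ± 0.04 for Scd1, 0.12 ± 0.03 for Scd2, 0.09 ± 0.04 for Fads1 and 0.12 ± 0.03 for Fads2, with adjusted p between 0.0888 and 0.239. Fa2h was near its floor in OPCs, at 1.07 ± 0.751 CPM in controls, 0.265 ± 0.0505 CPM under guide 1 (n = 2) and 0.432 ± 0.408 CPM under guide 2 (change -1.62 ± 0.68, adjusted p = 0.266). The 8 oligodendrocyte markers summed to 64.7 to 81.9 TPM in control OPCs, 122 to 123 TPM under guide 1 and 96.3 to 113 TPM with guide 2. The 12 astrocyte markers summed to 719 to 830, 980 to 1008 and 875 to 939 TPM. Both sums were higher in every targeted library than in any control, while the OPC and neuron sums overlapped the controls. The part of these markers in the OPC results was not tested. In the authors' deposited table of targeted against control OPCs, Galc and Psap passed an adjusted p of 0.05, and in the authors' deposited table for OLs the genes that passed were the 7 called here, all in the same direction.

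The response of Fads1 and Fads2, 2 of the 4 desaturases, differed between the stages. Fitted together, the change in OLs less the change in OPCs was 0.34 ± 0.07 for Fads1 (log2, SE, adjusted p = 0.0198), 0.31 ± 0.06 for Fads2 (adjusted p = 0.0153) and -7.38 for Elovl2 (adjusted p = 0.0151), a fitted value over targeted OLs at 0 counts and no bound, while Scd1 (0.40 ± 0.12, adjusted p = 0.138) and Scd2 (0.26 ± 0.07, adjusted p = 0.127) did not pass. These were 3 of 38 genes tested, where 1.69% of all 14352 genes were called, 0.920% as higher and 0.773% as lower. Fa2h did not differ by this test (0.79 ± 0.52, adjusted p = 0.647), nor did Galc (-0.18 ± 0.08, adjusted p = 0.403). The count was 6 without guide 1 OL library B and 1 without control OPC library A, guide 1 OPC library A or B, or control OL library A or C. No share over all genes is given for these settings. In the settings where the calls of Fads1 and Fads2 were lost, their adjusted p lay between 0.0523 and 0.076, the transcript-length offset for Fads1 among them.

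**Figure D5:**
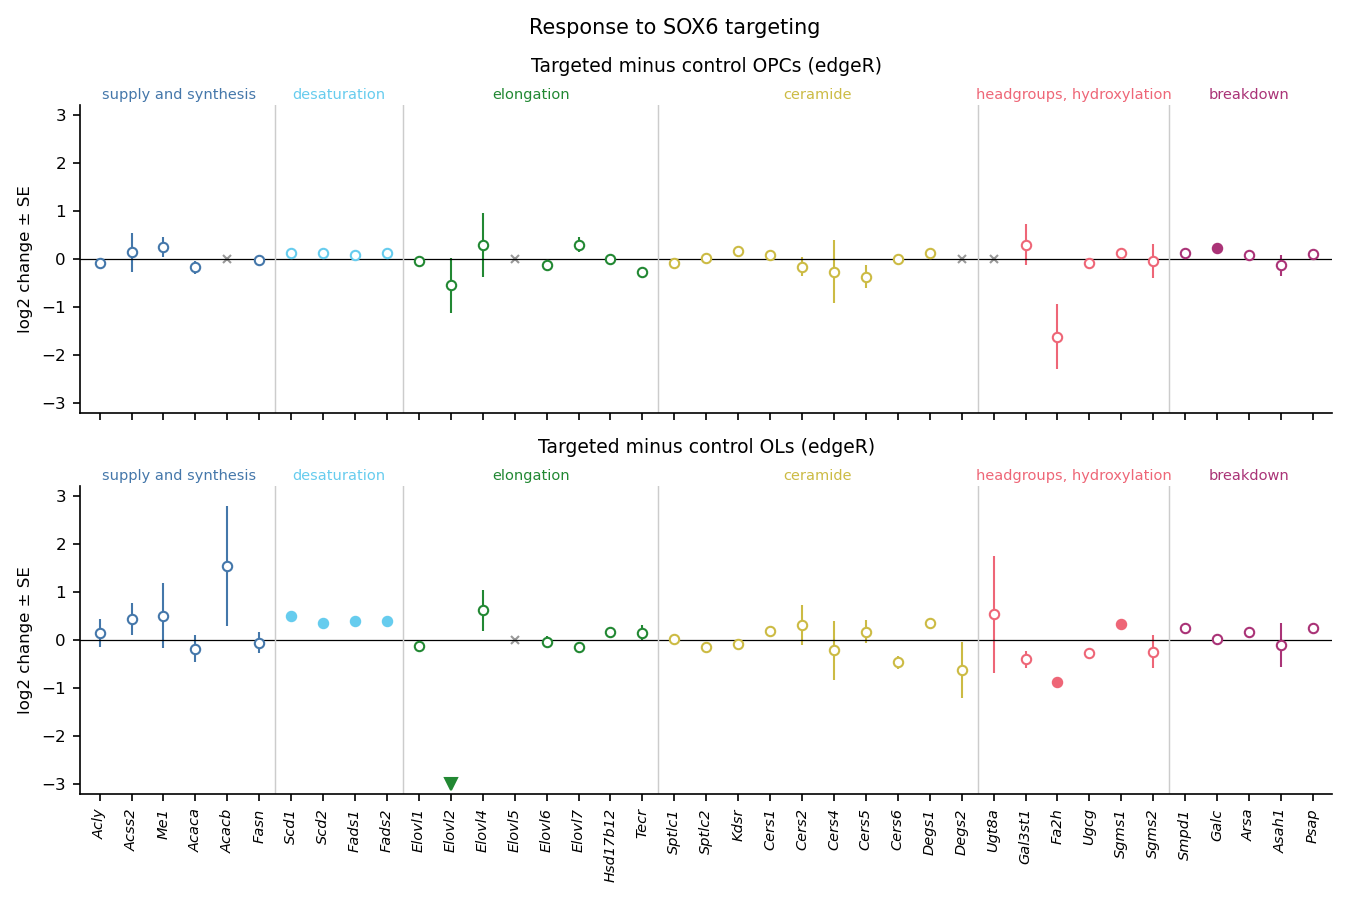
Log2 change of each gene on Sox6 targeting in OPCs (above) and OLs (below), with bars of 1 standard error; filled points passed an adjusted p of 0.05, grey crosses mark genes not tested and the triangle at the lower edge is Elovl2, whose fitted change of -7.97 lies off the scale. The 4 desaturases are filled in the lower panel and open near 0.1 in the upper panel.

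Other genes of the pathway were taken from 4 lists. Their stage counts stand beside 26.6% higher and 34.4% lower of all genes in sorted OLs, and 26.8% and 26.9% in culture. Of 15 lipogenic regulators, 10 were tested in sorted cells, with 1 higher and 3 lower in OLs, and 13 in culture, with 4 higher and 4 lower. The log2 changes of this list went both ways, from -0.77 to 1.64 in sorted cells and from -0.92 to 1.63 in culture. Srebf1, the transcription factor best known for driving fatty acid synthesis genes, was picked out after its values were seen. It differed by -0.77 ± 0.15 in sorted cells (log2, SE, adjusted p = 0.004) and by -0.43 ± 0.05 in culture (adjusted p = 2.5e-04). Its part in the stage results was not tested. Of 24 genes of fatty acid supply and activation with the remaining elongation and desaturation genes, 8 were higher and 4 lower of 17 in sorted cells, and 9 higher and 4 lower of 18 in culture. The acyl-CoA synthetases Acsl1 (2.81 ± 0.28) and Acsl3 (2.32 ± 0.06) were higher in sorted OLs, Acsbg1 was lower (-2.32 ± 0.41), and Me3 (2.29 ± 0.17) and Acsl6 (2.13 ± 0.09) were higher in cultured OLs. Of 15 fatty acid oxidation genes, 7 were higher and 3 lower of 13 in sorted cells, with the mitochondrial dehydrogenase Acadm among the lower genes (-2.18 ± 0.46), and 9 of 13 were higher in culture. Of 37 further sphingolipid genes, 12 were higher and 5 lower of 25 in sorted cells, led by the ceramide kinase Cerk (3.80 ± 0.51). In culture 9 were higher and 7 lower of 27. The higher genes there included Gm2a (1.74 ± 0.06), whose product presents gangliosides to a lysosomal enzyme. In targeted OLs the 4 lists, with 14, 20, 13 and 29 genes tested, gave 2 rises and 2 falls, where 6.50% of all genes were called, namely Acsl6 (0.44 ± 0.08) and Gm2a (0.32 ± 0.06) against Me3 (-0.65 ± 0.15) and Acsl5 (-0.54 ± 0.12), all of them in the lists of supply and further sphingolipid genes.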

How the data were processed

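The authors deposited gene-level estimated counts for the SOX6 experiment, separately for OPCs and OLs, and TPM values for all libraries. Reads were quantified with Salmon 0.14.1, per the submitters' processing notes, which also name DESeq2 and the mm10 build. The DESeq2 version was not given in the sources used here. Values from the authors' deposited tables of log2 change and adjusted p-value are quoted only where named. Libraries were grouped by their labels. Estimated counts were rounded to whole numbers, filtered (filterByExpr, minimum count 10 and total 15), scaled by TMM and tested with edgeR 4.0.16's quasi-likelihood test, with 1 fit per stage and the mean of both guides set against control. For sorted cells, limma 3.58.1 was run on log2(TPM + 1) of the genes with at least 1 TPM in 3 libraries. Those fold changes are on that scale, which understates low genes. All p-values were Benjamini-Hochberg adjusted over all genes tested, at a threshold of 0.05. DESeq2 1.42.0 and R 4.3.3 served for alternatives. Deposited TPM of named genes held 77.6% to 79.6% of the scale. Counting precision is limited by library totals, and the scripts were tested on simulated data.

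The genes and lists were chosen with earlier results of these data known. Named genes were all 39, plus, from the further lists, called genes changed at least 2-fold, at most 6 per comparison. Srebf1, Acsl5 and the genes named from the lists in targeted OLs were outside that rule and were chosen after their values were seen.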

Additional observations from a re-analysis of the deposited data

Results flagged for a closer look

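The response to Sox6 targeting differed between OLs and OPCs for 3 genes, by the interaction term of 1 edgeR fit over both stages. The log2 response of OLs minus that of OPCs was 0.34 for Fads1 (adjusted p = 0.0198) and 0.31 for Fads2 (adjusted p = 0.0153). Both calls were lost in several alternatives, with adjusted p between 0.0523 and 0.076 there. In OLs both were higher in 6 of 6 targeted libraries than in any control, a separation given without its share over all genes. The difference in response was -7.38 for Elovl2 (adjusted p = 0.0151), which was listed at 0 in 6 of 6 targeted OL libraries and passed the filter in OLs through its controls, so that the fitted value is no bound. Against a floor of 3 counts per library Elovl2 was at least 10.3-fold lower in targeted OLs, by group means. Its level of 0 may be a failed estimate, as for other single genes, in which case the 10.3-fold bound does not hold. The stages came in separate tables, so table and stage cannot be told apart.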

How the results depend on the processing

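Called genes kept their calls in every alternative in 22 of 27 cases for sorted cells, 18 of 25 for the culture stages, 3 of 7 for targeted OLs (Fads1, Fads2 and Fa2h) and 1 of 3 for the difference between stages (Elovl2). The 1 call in targeted OPCs was not kept. In targeted OLs library totals gave 4 calls (2 higher), no filter gave 3 higher, and 1 fit over both stages gave 13 (9 higher, 4 lower). In targeted OPCs DESeq2 gave 5 (4 higher, 1 lower), and length offsets, 1 fit over both stages, and leaving out both uneven controls (chosen after seeing the data) each gave 0. The last leaves 1 control library, and Galc's change there was 0.25, against 0.23. Guide 2 alone in OPCs went from 1 to 0 with length offsets. Kdsr between the culture stages reversed to -0.0046 with length offsets. The cause was not tested. Leaving out 1 library gave 22 to 25 calls in sorted cells (20 to 22 higher, 2 to 3 lower), 22 to 25 in the culture stages (17 to 20 higher, 5 to 6 lower), 0 to 1 in targeted OPCs (0 to 1 higher, 0 to 0 lower), 3 to 14 in targeted OLs (2 to 9 higher, 1 to 5 lower), 0 to 0 and 0 to 2 for guides 1 and 2 in OPCs, 1 to 13 and 2 to 13 for guides 1 and 2 in OLs, and 1 to 6 for the difference between stages. Shares of all genes called are given only for DESeq2 in targeted OPCs (6.08%) and for targeted OLs without guide 1 library B (16.9%). The other counts in alternative settings describe the listed genes only. Of 766 values recomputed for single genes, 673 kept direction and side of the threshold, 92 lost the threshold and 1 reversed. No paired analysis was possible because the columns carry letters that the labels do not tie to replicate numbers.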
